A study of Mus musculus with 4 samples.

Results

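Of 62955 H3K27ac peaks that the authors called on chromosomes 1 to 19 of Smchd1-control neural stem cells, 23101 had a fold enrichment of at least 4.5 over background, and 696 of these overlapped no peak of the Smchd1-deleted cells by even 1 base. These 696 enriched control-only peaks, 3.01% of the enriched control peaks (95% interval 2.80 to 3.24), are described here and are called members. Both the enrichment and the missing overlap are measured values and chose the members, so they are given as a description. The mirror set, enriched deleted-only peaks chosen by the same rule with the lists exchanged, held 2120 of 24674 peaks, or 8.59% (8.25 to 8.95). The deleted list is longer, with 90483 peaks against 62955 on these chromosomes, and its ChIP library is deeper. Against a deleted list cut to the control list's length, the control-only share was 5.67% in place of 3.01%. The shares of members and of the mirror set therefore do not show whether gains outnumbered losses.

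Neural stem cells grown from female E14.5 mouse embryos were profiled for H3K27ac by ChIP-seq, the sequencing of immunoprecipitated chromatin, with 1 ChIP library and 1 input library (whole-cell extract) for each kind of cell. Deleted cells (Smchd1 del/del) were made from established Smchd1 del/fl lines with the retrovirus MSCV-Cre-puro, which carries Cre recombinase and puromycin resistance. Puromycin was given from 24 h, and cells were collected 7 days after transduction. Control cells were never transduced, so that loss of Smchd1, infection and selection cannot be told apart. All cells, controls too, had a maternal X chromosome of 129 origin with the Xist deltaA allele and a paternal Castaneus X chromosome, and the strain field names C57BL/6. The labels disagree in 3 places: the antibody field of both ChIP libraries names H3K27me3, the genotype field of the control ChIP library reads del/fl under a title of fl/fl, and that of the control input reads del/del. Libraries were assigned to groups by their titles. Whether control cells were del/fl, like the lines that gave the deleted cells, or fl/fl is not settled by these labels. A difference of line or starting genotype therefore cannot be told apart from the other factors either.

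Acetylation of lysine 27 on histone H3 is placed by the acetyltransferases p300 and CBP and marks active promoters and active enhancers, while the same residue carries methyl groups in Polycomb-silenced chromatin. Around an active start site the mark sits on the nucleosomes on either side of a gap, so a promoter often gives a pair of maxima, 1 upstream and 1 downstream. Smchd1 is a chromatin protein of the SMC family that is known for silencing on the inactive X chromosome and at some imprinted and protocadherin clusters.

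The sequences below show where members lay at promoters. Each is the RefSeq promoter window of GRCm38.p6, 250 bases before to 50 bases after the annotated start, printed 5′ to 3′ on the gene's strand. Capitals mark the bases that the member covered. The first 6 belong to the most enriched members that were within 1 kb of a gene end and reached a window: Gm34507 (chr17:4908072-4908371, plus strand), Kiz (chr2:146855630-146855929, plus strand), Gm52706 (chr4:119108700-119108999, minus strand), Cdc42ep1 (chr15:78842397-78842696, plus strand), Zw10 (chr9:49055331-49055630, plus strand) and Chic2 (chr5:75044592-75044891, minus strand). Cnn2 (chr10:79988350-79988649, plus strand) was added after its values were seen, because no deleted peak lay within 1 kb of either of its ends.
Gm34507: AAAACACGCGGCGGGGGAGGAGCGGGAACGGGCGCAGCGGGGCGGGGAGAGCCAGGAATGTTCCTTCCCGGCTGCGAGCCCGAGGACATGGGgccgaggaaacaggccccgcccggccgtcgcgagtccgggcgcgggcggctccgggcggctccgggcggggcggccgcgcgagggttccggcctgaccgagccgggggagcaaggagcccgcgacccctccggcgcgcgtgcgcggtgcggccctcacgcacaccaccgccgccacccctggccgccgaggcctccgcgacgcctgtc
Kiz: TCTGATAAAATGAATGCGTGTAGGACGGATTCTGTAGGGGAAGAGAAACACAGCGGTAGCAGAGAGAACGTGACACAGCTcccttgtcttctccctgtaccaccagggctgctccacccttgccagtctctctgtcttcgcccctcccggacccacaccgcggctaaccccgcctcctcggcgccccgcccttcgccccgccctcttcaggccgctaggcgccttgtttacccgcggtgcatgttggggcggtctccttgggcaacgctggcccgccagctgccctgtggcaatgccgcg
Gm52706: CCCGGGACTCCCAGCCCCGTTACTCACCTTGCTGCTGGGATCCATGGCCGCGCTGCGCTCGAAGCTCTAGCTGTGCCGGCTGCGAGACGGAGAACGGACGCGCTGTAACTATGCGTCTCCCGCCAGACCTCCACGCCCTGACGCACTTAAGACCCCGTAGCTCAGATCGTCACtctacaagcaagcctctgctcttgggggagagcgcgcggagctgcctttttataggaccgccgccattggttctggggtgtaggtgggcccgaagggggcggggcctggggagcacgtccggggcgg
Cdc42ep1: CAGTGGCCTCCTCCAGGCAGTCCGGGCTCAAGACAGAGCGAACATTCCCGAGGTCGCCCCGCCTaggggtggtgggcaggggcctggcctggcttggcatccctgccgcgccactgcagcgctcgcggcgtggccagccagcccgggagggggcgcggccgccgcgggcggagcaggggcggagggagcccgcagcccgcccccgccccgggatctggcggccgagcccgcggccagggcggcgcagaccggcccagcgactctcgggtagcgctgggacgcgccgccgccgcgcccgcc
Zw10: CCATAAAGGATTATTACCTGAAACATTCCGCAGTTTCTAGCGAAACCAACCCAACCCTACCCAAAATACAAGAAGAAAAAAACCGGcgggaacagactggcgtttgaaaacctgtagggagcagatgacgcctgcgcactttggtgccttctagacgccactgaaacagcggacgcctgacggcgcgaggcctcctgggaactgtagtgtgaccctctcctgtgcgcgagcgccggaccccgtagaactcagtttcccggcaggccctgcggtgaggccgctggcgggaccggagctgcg
Chic2: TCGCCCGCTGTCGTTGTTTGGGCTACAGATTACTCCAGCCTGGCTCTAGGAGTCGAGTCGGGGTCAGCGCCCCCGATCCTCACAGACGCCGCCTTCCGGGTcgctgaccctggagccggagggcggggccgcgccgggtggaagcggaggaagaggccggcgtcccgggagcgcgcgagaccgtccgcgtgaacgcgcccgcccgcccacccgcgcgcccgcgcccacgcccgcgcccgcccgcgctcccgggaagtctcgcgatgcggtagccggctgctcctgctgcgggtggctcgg
Cnn2: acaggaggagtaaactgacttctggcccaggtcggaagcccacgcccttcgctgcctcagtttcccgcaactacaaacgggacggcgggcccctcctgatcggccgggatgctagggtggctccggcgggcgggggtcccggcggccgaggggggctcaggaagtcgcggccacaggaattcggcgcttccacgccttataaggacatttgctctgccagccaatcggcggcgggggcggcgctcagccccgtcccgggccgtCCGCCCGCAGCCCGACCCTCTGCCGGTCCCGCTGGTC

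In the first 6 windows the capitals stand at the upstream edge and stop 64 to 173 bases into the window, before the start site. The member at Gm52706 also lay inside the neighbouring gene Slc2a1, within 1 kb of an end of that gene. The member covered 92 bases at Gm34507, 80 at Kiz, 173 at Gm52706, 64 at Cdc42ep1, 86 at Zw10 and 101 at Chic2. At Cnn2 the member covered the last 37 bases, which include the start site's downstream side. The deleted list had no peak in the windows of Gm34507, Kiz, Gm52706, Chic2 and Cnn2, and its peaks reached 37 bases of the Cdc42ep1 window and 29 bases of the Zw10 window.

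Kiz, which encodes a centrosomal protein of the spindle pole, is an example with a member upstream of its start. Its member (chr2:146855506-146855709) had a fold enrichment of 5.85 from a pileup, the number of overlapping fragments at the summit, of 28. The summit lay 289 bases upstream of the start. A deleted peak with a fold enrichment of 8.73 began 246 bases past the member, downstream of the start, so both cultures had an acetylated promoter at Kiz and the upstream maximum was called in control cells only.

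A member upstream of a start was also found at Zw10, which encodes a kinetochore protein of the spindle checkpoint: the member had a fold enrichment of 5.65, its summit was 307 bases upstream, and a deleted peak of 9.07 lay 186 bases away. At Cdc42ep1, an effector of the small GTPase Cdc42, the member had 5.65, with its summit 311 bases upstream and a deleted peak of 10.75 at 200 bases. At Chic2, which encodes a palmitoylated membrane protein of vesicles, the member had 5.45, with its summit 251 bases upstream and a deleted peak of 9.91 at 336 bases. At Kiz and these 3 promoters the neighbouring deleted peak had a higher fold than the member, while at Gm34507 (deleted peak 5.29, member 5.85) and Gm52706 (deleted peak 4.20, member 5.85) it had a lower one. Over all 441 members within 1 kb of a deleted peak, 106 had a neighbour of higher fold. Each fold is relative to that culture's input alone and was not scaled across cultures, so such pairs of values are set side by side without a test.

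Over all members, 39 overlapped 42 promoter windows of 40 genes, out of 31396 windows of 25748 genes. In 30 of the 42 windows there was no deleted peak, in 12 there was 1, and in 9 there was another control peak. The rule itself favours windows without a deleted peak, since a member overlaps none, so these counts are a description only. The summit lay upstream of the start for 24 of the 39 members, at a median of -254.5 bases from it, and downstream or at it for 15. The window reaches farther upstream than downstream, which favours upstream members: over all members with a start of known strand, 29 summits lay within 500 bases upstream of the nearest start and 38 within 500 bases downstream. Of the 39 members, 31 lay within 1 kb of a deleted peak.

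Sequence was counted over the whole window of 300 bases, of which a member could cover as little as 1 base, as at Gm34267. The values below therefore describe promoters that a member reached, not the bases under the member. The 42 windows were rich in G and C. Their median GC content was 59%, against 62% in 3546 windows under control peaks of the same fold range that overlapped a deleted peak, 64.7% in 414 windows under enriched deleted-only peaks, and 53% in all windows. The median number of CG pairs per window was 20.5 under members, 22 under overlapped control peaks, 25 under deleted-only peaks and 7 in all windows. Motifs were counted on both strands. CCGCCC, the GC box, occurred in 59.5% of the member windows (43.3 to 74.4), against 64.2% under overlapped control peaks, 70.5% under deleted-only peaks and 36.0% of all windows. ACAAAG, a Sox motif, occurred in 23.8% (12.1 to 39.5), against 12.8%, 10.9% and 18.6% in the same 3 sets. TTGGCA, an NFI site, occurred in 9.52% (2.66 to 22.6), against 11.2%, 7.97% and 14.1%. The other motifs searched were ACAATG (a further Sox motif), in 2.38% of member windows and 12.2% of all windows, CAGCTG and CAGATG (E-boxes), in 9.52% and 16.7% of member windows against 16.3% and 17.2% of all, and TGANTCA (AP-1), in 7.14% against 7.85%. CATTCC (TEAD) occurred in 9.52% of member windows and 14.6% of all, TGACGTCA (the cyclic AMP response element) in 4.76% and 1.83%, GTTGCCAT (RFX-like) in 2 member windows that belong to 1 member and in 1.34% of all, and ATGCAAAT (the octamer) in 0 of 42. No motif contains another. Some of the 42 windows overlap and hold the same site, so that the 10 windows with ACAAAG came from 7 members and the 25 with CCGCCC from 24, while the intervals count windows as separate. They are wide: for 10 of the 11 motifs the interval of the member windows took in the percentage of all windows, and for CCGCCC it lay above it.

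Members lay close to the fold minimum that chose them. Their fold enrichment ran from 4.54 to 7.2 with a median of 4.84, and 226 of them, or 32.5%, had the same value of 4.64, since fold follows whole pileups over a constant background. The pileup at the summit ran from 22 to 35 fragments with a median of 23. Local background stood at the genome-wide floor of the control list, 3.96 fragments, for 670 members (96.3%), so that few members lay where the input was locally raised. Just inside the minimum, 3 members tied at a fold of 4.54 and lay in Adgrb3, at Tmem41b and near Gm39153. Just outside it, 6 control-only peaks tied at a fold that falls short of 4.5 only beyond the second decimal, and 3 of them lay in Niban1, in Ankrd45 and at Psap.

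The share of control peaks that were members fell steeply with enrichment. It was 9.38% (461 of 4914) at a fold of 4.5 to 5, 4.46% (189 of 4234) at 5 to 5.5, 1.40% (33 of 2350) at 5.5 to 6 and 0.285% (13 of 4555) at 6 to 7.2. The range above 7.2 begins at the members' own highest fold, so its 7048 control peaks hold none by construction. Where control peaks did overlap a deleted peak, the most enriched such deleted peak had a median fold of 4.70 in the lowest of these ranges and 6.72 in the range of 6 to 7.2. The 5th percentile of that deleted fold was 3.02 in the lowest range and 4.20 in the range of 6 to 7.2, beside a 5th percentile of 2.69 among all deleted peaks at the floor background.

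**Figure D1:**
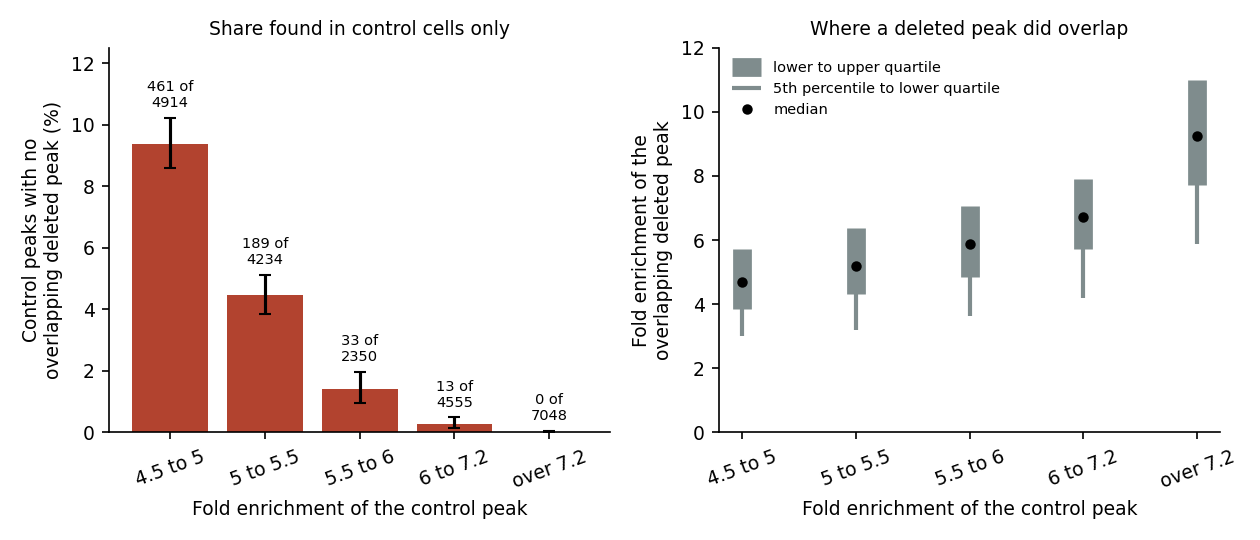
Left, percentage of enriched control peaks with no overlapping deleted peak in each range of fold enrichment, with exact 95% intervals and the counts above the bars. Right, fold enrichment of the overlapping deleted peak in the same ranges (dot, median; thick bar, quartiles; thin bar, down to the 5th percentile). The share of members falls from the lowest range to 13 of 4555 at 6 to 7.2, and the last range starts at the members' highest fold, so it holds none by construction.

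What a position needs to be listed differs between the libraries. After filtering, 54194233 ChIP tags were left for deleted cells and 42277672 for control cells, a ratio of 1.28, and the inputs held 77101643 tags for deleted cells and 80601280 for control cells. At the floor background the least covered peak had a pileup of 13 among deleted peaks and of 12 among control peaks. The deposited deleted list gives no value at a position without a peak, so the acetylation of deleted cells at a member is known only to have stayed outside a call. With 1 library per group no difference here has a replicate check, intervals cover counting error only, and in bulk chromatin fewer cells with a mark and less of it per cell cannot be told apart.

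Genes of neural stem cells carried the mark in both lists. Of 12 marker genes, 8 had a peak within 1 kb of an end in both lists, among them Sox2 (fold enrichment 20.7 in deleted cells and 20.6 in control cells), Olig2 (20.7 in deleted and 22.4 in control cells) and Nes (12.9 in both). Nfia and Lhx2 had one in deleted cells only, Msi1 in control cells only, and Pax6 in neither. Among markers of other cells, both lists had a gene-end peak at 4 of 6 astrocyte, 1 of 4 oligodendrocyte, 2 of 5 neuron, 1 of 4 microglia, 0 of 3 endothelial and 1 of 5 fibroblast genes. No marker gene of any of these 7 kinds of cell had a member within 1 kb of an end. Over all genes 0.529% had one, so a count of 0 among so few markers is near that share.

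Most members stood beside acetylated chromatin of deleted cells, not far from it. The median distance to the nearest deleted peak, edge to edge, was 515 bases (95% interval 462 to 629), with quartiles of 201.5 and 2620 bases. Within 500 bases of a deleted peak lay 342 members (49.1%), within 1 kb 441 (63.4%, 59.7 to 67.0) and within 5 kb 578 (83.1%). Control-only peaks under the fold minimum had a median of 980 bases and 50.4% within 1 kb (49.6 to 51.2). Enriched deleted-only peaks had a median of 608.5 bases to the nearest control peak, and 58.4% of them were within 1 kb (56.3 to 60.5).

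**Figure D2:**
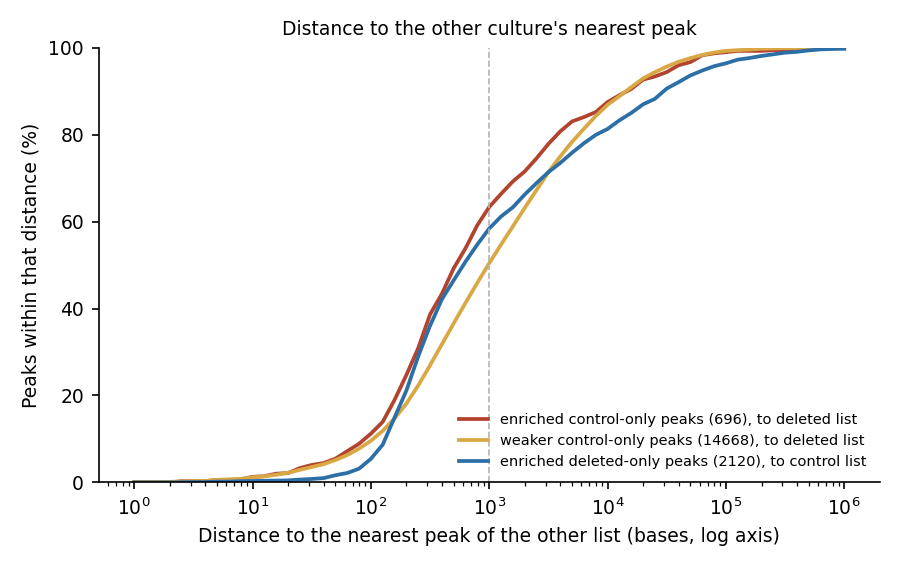
Cumulative percentage of peaks by the distance from their edge to the nearest peak of the other list, in bases on a log axis, for the 696 members, 14668 weaker control-only peaks and 2120 enriched deleted-only peaks. The dashed line marks 1 kb, which takes in 63.4% of members, 50.4% of weaker control-only peaks and 58.4% of deleted-only peaks.

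Among the 441 members within 1 kb of a deleted peak, that deleted peak itself overlapped another control peak in 262 cases (59.4%). Such a member was an extra maximum next to a region called in both lists. In the other 179 cases (40.6%) the deleted peak overlapped no control peak either. Neither the member nor its neighbour then overlapped any peak of the other list. Some of these pairs lay close together, such as 11 bases apart for the member of 6.86 on chromosome 12. Whether such a pair marks the same region was not tested. Deleted peaks flanked 138 of the 441 on both sides. The nearest deleted peak had a median fold of 3.69 over all 441, of 4.37 for the 111 that were at a gene end, and of 3.61 for the 330 that were not.

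Farther from the deleted peaks, 137 members lay at 1 to 5 kb and 118 (17.0%) at over 5 kb. Of these 118, 97 had no other peak of either list within 5 kb. Gene ends were near 25.2% of the members within 1 kb of a deleted peak (21.2 to 29.5), 7.30% of those at 1 to 5 kb (3.56 to 13.0) and 20.3% of those beyond 5 kb (13.5 to 28.7). The 23 members over 50 kb from any deleted peak reached a fold of 5.25 at most. They included peaks in Pclo, which encodes a scaffold of the presynaptic active zone, in Lrp1b, a receptor of the LDL receptor family, in Diaph3, a formin, and in Pard3, a polarity protein, and at the ends of Gja4 and H2-Q4. These 23 were chosen for their distance, and the genes named were picked after their values were seen.

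The most enriched members also lay mostly near a deleted peak, beside 63.4% of all members within 1 kb. They were ranked by fold, which the rule used, so their counts are a description only. Of the 25 at the top, with fold enrichments of 5.85 to 7.2, 21 lay within 1 kb of a deleted peak, 2 at 1 to 5 kb and 2 beyond 5 kb. The nearest deleted peak overlapped another control peak for 16 of the 25, and for 52.6% of all members. A gene end was within 1 kb of 8 (20.8% of all members), and 14 were inside a gene (70.4% of all members).

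The top member (chr1:51334385-51334609) had a fold of 7.2 from a pileup of 35 and lay 606 bases from an end of the lncRNA gene 9330175M20Rik. Its nearest deleted peak was 472 bases away with a fold of 3.02. The next (chr12:68463709-68463987) had 6.86 and lay between genes, 11 bases from a deleted peak of 3.26 and with deleted peaks on both sides.

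The member in Chst3 (chr10:60194116-60194391) had a fold of 6.46 and a deleted peak of 3.19 at 70 bases. Chst3 encodes a sulfotransferase that modifies chondroitin sulfate, a component of the matrix of neural progenitors. The member at Psmc3 (chr2:91053728-91053926), a gene for an ATPase subunit of the proteasome, also had 6.46. There the deleted peak, 105 bases away, was far more enriched, at 13.77. The member in Lif (chr11:4261295-4261711), a gene for a cytokine that acts on neural stem cells, had 6.25 with a deleted peak of 3.36 at 593 bases.

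A member of 6.25 (chr19:7099612-7099943) lay in both Macrod1, which encodes an ADP-ribose hydrolase, and Flrt1, which encodes a cell-surface protein with leucine-rich repeats, 153 bases from a deleted peak of 4.37. Another of 6.25 (chr7:134234193-134234603) lay 9096 bases from Adam12, a metalloprotease gene, with a deleted peak of 3.53 at 1030 bases. Members of 6.20 lay in the lncRNA gene Gm20517, near the deubiquitinase gene Usp49, and in Cdk2ap1, which encodes a partner of CDK2 and of a chromatin remodelling complex. The deleted peaks beside these last 2 had folds of 5.21 at 180 bases and 6.43 at 89 bases.

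Map1b, Ppp1r16b, Slc12a4 and Ctdspl held members with a fold of 6.05. In Map1b, a gene for a microtubule-associated protein of growing axons, the member (chr13:99515424-99515617) was within 1 kb of a gene end and 543 bases from a deleted peak of 3.36. In Ppp1r16b, a regulatory subunit of protein phosphatase 1, the deleted peak was 149 bases away with 3.69. In Slc12a4, a potassium and chloride cotransporter, it was 949 bases away with 5.04, and at Ctdspl, a phosphatase that acts on the retinoblastoma protein, 110 bases away with 2.83. The member of 6.00 in Gm20139 (chr10:19188148-19188421) was the highest with no other peak of either list within 5 kb, and its nearest deleted peak was 20041 bases off.

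The remaining 11 of the 25 all had a fold of 5.85. They lay in Chst11, a further chondroitin sulfotransferase gene, and in E2f2, a cell cycle transcription factor gene. They lay at an end of Nt5dc3, of Gm34507, of Kiz, and of Gm52706 with Slc2a1, the last a glucose transporter gene. They lay in Gm26812, and near Dtd2, Tmem44, Gm49668 and Armh1. The distances to a deleted peak ran from 96 bases, near Gm49668, to 8075 bases, near Armh1, and the deleted folds from 3.36 near Tmem44 to 8.73 at Kiz.

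**Figure D3:**
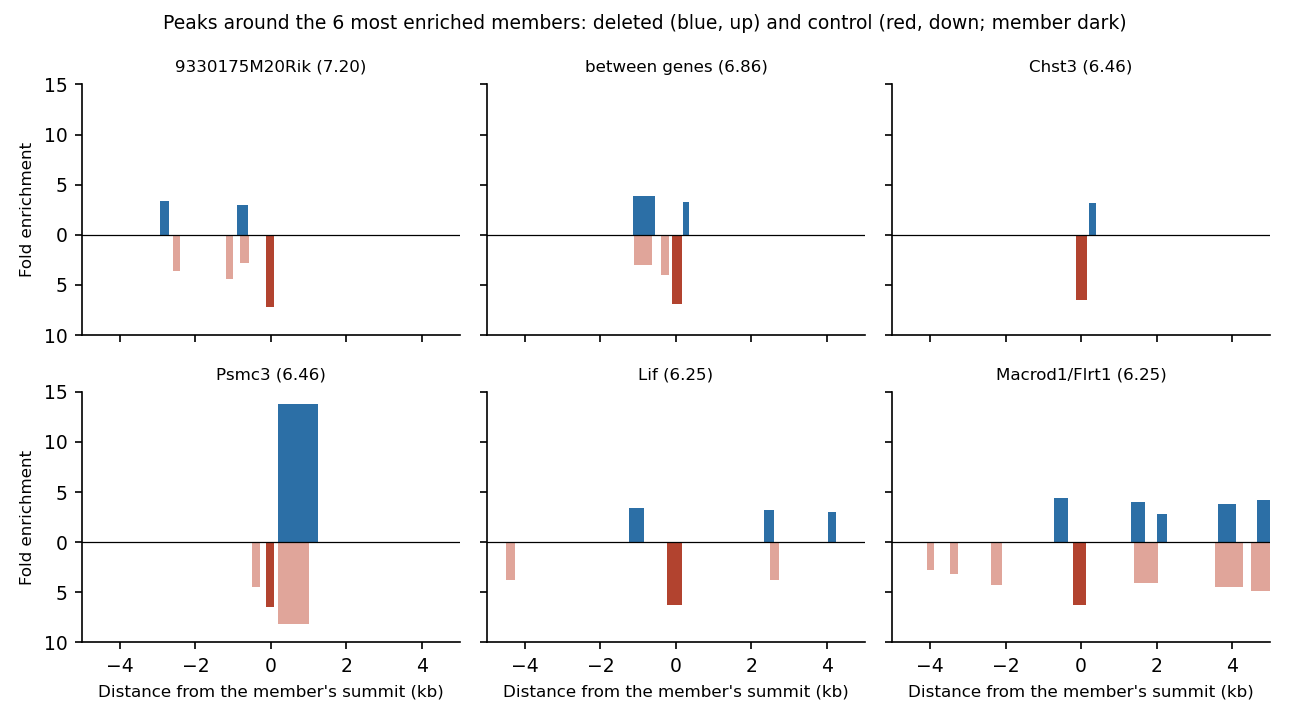
Peaks within 5 kb of the summit of the 6 most enriched members, with fold enrichment as bar height and the peak's extent as bar width. Deleted peaks point up (blue) and control peaks down (red, the member dark), and the member's gene and fold stand above each panel. Each panel has a deleted peak beside the member, at 11 to 593 bases.

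Most members lay inside genes and away from their ends. Within 1 kb of an end of an annotated gene lay 145 members, or 20.8% (17.9 to 24.0), against 46.1% (45.3 to 46.9) of 15357 control peaks of the same fold range that overlapped a deleted peak. The percentage was 36.6% (34.5 to 38.7) in enriched deleted-only peaks and 12.3% (11.7 to 12.8) in weaker control-only peaks. Inside a gene lay 490 members, or 70.4% (66.9 to 73.8), against 77.2% of the overlapped peaks of that range. Neither inside a gene nor within 1 kb of an end lay 164 members, or 23.6% (20.5 to 26.9), against 14.4% of the overlapped peaks. The gene table has no strand or exons, so exons, introns and UTRs were not told apart. No test was run on these shares, because neighbouring peaks are not independent.

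Enrichment itself moves with gene ends, so the same shares were read at matched fold. Width was not matched, and the overlap that chose the members also defines the overlapped set. The part of the rule in this contrast was not tested. At 4.5 to 5, 18.2% of members were at a gene end (14.8 to 22.1), against 33.3% of overlapped control peaks (31.9 to 34.7) and 29.4% of deleted-only peaks (27 to 31.9). At 5 to 5.5 it was 24.3% of members (18.4 to 31.1), against 42.2% of overlapped control peaks (40.7 to 43.7) and 39.9% of deleted-only peaks (35.4 to 44.6). At 5.5 to 6, with 33 members, the interval of 18 to 51.8% around 33.3% took in the 48.5% of overlapped peaks.

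Members were also narrow. Their median width was 257 bases (250 to 263), against 479 bases (472 to 484) in overlapped control peaks of the same fold range, 316.5 bases in enriched deleted-only peaks and 219 bases in weaker control-only peaks. The caller's shortest peak is 1 fragment long, 171 bases among deleted peaks and 175 among control peaks, and 373 members were no wider than 1.5 control fragments. At a fold of 4.5 to 5 the median width was 251 bases for members and 388 for overlapped control peaks, and at 5 to 5.5 it was 262 for members and 452 for overlapped control peaks. A narrow peak has fewer bases with which to meet a peak of the other list, and the part of width in the choice of members was not tested.

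**Figure D4:**
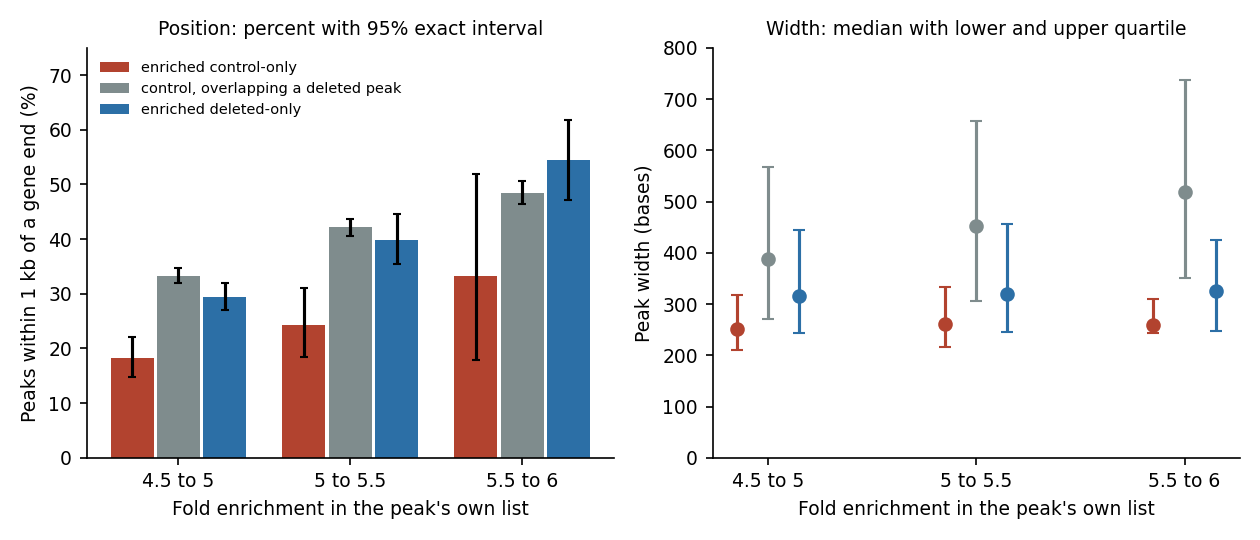
Left, percentage of peaks within 1 kb of a gene end with exact 95% intervals; right, median peak width with quartiles, in bases. Peaks are split by fold enrichment in their own list into members, control peaks that overlap a deleted peak, and enriched deleted-only peaks. Members are the lowest of the 3 sets in both panels at every fold range shown, with overlapping intervals for position at 5.5 to 6.

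Where strand was known, from the RefSeq promoter table, summits could be placed upstream or downstream of starts. Of 678 members with such a reference, 36 (5.31%) had their summit within 250 bases of a start, against 15.8% of overlapped control peaks of the same fold range and 16.7% of enriched deleted-only peaks. Within 1 kb of a start lay 14.2% of members, 39.9% of overlapped peaks and 30.3% of deleted-only peaks. The median distance to a start was 17340 bases for members, 4033 for overlapped peaks and 8102 for deleted-only peaks. From 250 to 1000 bases upstream lay 4.72% of members and 9.08% of overlapped peaks, and from 250 to 1000 bases downstream 4.13% of members and 15% of overlapped peaks. Overlapped peaks leaned to the downstream side, while the members' 2 shares had overlapping intervals (3.25 to 6.60 upstream and 2.76 to 5.91 downstream).

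**Figure D5:**
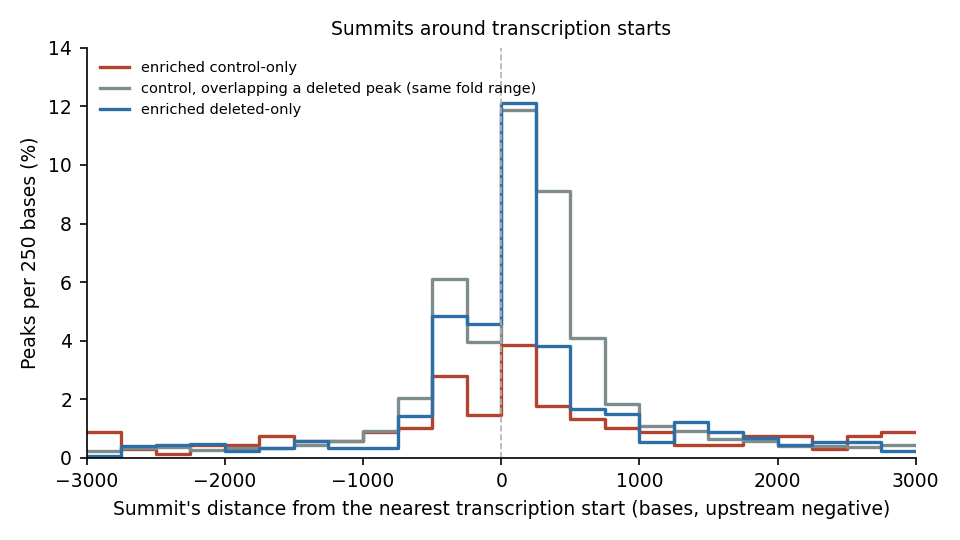
Percentage of summits in each 250 bases around the nearest annotated transcription start, upstream negative, for members, control peaks of the same fold range that overlap a deleted peak, and enriched deleted-only peaks. Members stay under 4% in every step, while the other 2 sets reach 11.9% and 12.1% just downstream of the start.

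Counted by gene, 175 of 33069 genes had a member within 1 kb of an end, or 0.529%, of which 113 were protein-coding and 62 lncRNA genes. A deleted peak within 1 kb of an end was present at 141 of the 175 (80.6%), and another control peak at 130. Over all 10771 genes with an enriched control peak there, 99.6% had a deleted peak too, a difference that the rule itself builds in, since enriched control peaks that are no members overlap a deleted peak. Besides the genes above, the 20 genes with the most enriched such members included Ankrd52, a regulatory subunit of protein phosphatase 6 (member 5.45, and a deleted peak of 4.20 at 692 bases). They also included Spata24 (5.45) and the lncRNA genes E230001N04Rik, Gm13421 and C030029H02Rik (5.65 each), Gm52360 (5.60), Gm41053 (5.57) and Gm52727 (5.45).

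The other 34 of the 175 (19.4%) had no deleted peak within 1 kb of an end, and 30 had no other control peak there either. Of these 34, 17 were protein-coding. Nudt13, which encodes a nudix hydrolase, had a member of 5.25 (chr14:20295126-20295308) and its nearest deleted peak 44223 bases away. Prmt3, an arginine methyltransferase gene, had a member of 5.25 with a deleted peak of 3.02 at 824 bases, inside the gene. Cnn2, which encodes the actin-binding protein calponin 2 and whose promoter is printed above, had a member of 5.04 (chr10:79988613-79988804), with its summit 86 bases downstream of the start and the nearest deleted peak 2685 bases away.

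Pkn3, a kinase of the protein kinase N family, had 5.04 with a deleted peak of 2.52 at 629 bases. Members of 4.84 stood at the ends of Ticam2, an adaptor of Toll-like receptors, Gja4, a connexin, Bcam, a laminin-binding adhesion molecule, and Iglon5, a neural adhesion molecule. Members of 4.64 stood at Ccr7, a chemokine receptor, Cdhr1, a cadherin of photoreceptors, and H2-Q4, a class I histocompatibility gene, and a member of 4.60 at Mesp2, a transcription factor of the embryonic somites. The distances from these 8 to the nearest deleted peak ran from 13755 bases, at Mesp2, to 59158 bases, at H2-Q4. All these genes were selected for lacking a deleted peak at their ends, so their values add no support to that, and those named were picked after their values were seen.

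At an end or inside, 569 genes had a member, which is 1.72% of all genes and 4.56% of the 12491 genes with an enriched control peak there. The percentage grew with the number of such peaks in the gene, from 2.12% of genes with 1 to 4.83% with 2 to 4, 17.8% with 5 to 9 and 31.6% with 10 or more. Genes with a member had a median length of 55.3 kb, against 20.9 kb for all genes with an enriched control peak. Rapgef2, an activator of the GTPase Rap, and Mthfd1l, a mitochondrial enzyme of folate metabolism, held 3 members each, 31 genes held 2 and 462 genes 1.

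Rapgef2 had 37 deleted and 37 control peaks, and its top member had a fold of 5.37 with a deleted peak of 5 at 281 bases. Mthfd1l had 48 deleted and 45 control peaks, and its top member had 4.84 with a deleted peak of 2.85 at 985 bases. The 8 genes next in order, with 2 members each, were Ppp1r16b, E2f2 and Slc2a1 with Abcb9, a lysosomal peptide transporter, Adarb1, an RNA-editing enzyme, Megf11, Smoc1, a secreted protein that binds in the matrix, and Tns1, a protein of focal adhesions. In 7 of these 10 genes the deleted list held more peaks than the control list, in Rapgef2 as many, and in Slc2a1 (7 deleted and 8 control) and Abcb9 (14 deleted and 17 control) fewer. The deleted list is longer throughout, with 90483 peaks against 62955 on these chromosomes, a ratio of 1.44. Of the 12491 genes with an enriched control peak, 49.3% had more deleted than control peaks and 16.0% fewer, and of the 569 genes with a member, 55.4% had more and 29.2% fewer.

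Among 24 lists of neural, signalling and housekeeping genes, 30 of 546 genes had a member at an end or inside, or 5.49%, and of the 385 with an enriched control peak 7.79%. The shares over all genes were 1.72% and 4.56%, and the listed genes were longer, with a median of 46.5 kb where an enriched control peak was present. At matched numbers of such peaks the listed share was 1.77% with 1 peak (0.215 to 6.25) against 2.12% of all genes, 7.11% with 2 to 4 (3.94 to 11.6) against 4.83%, 14% with 5 to 9 (5.82 to 26.7) against 17.8%, and 28% with 10 or more (12.1 to 49.4) against 31.6%. The listed share was thus the lower one in 3 of the 4 groups, and every interval took in the share of all genes. Only Gsk3b, Gabbr1 and Map1b of the 30 had a member within 1 kb of an end. In 23 of the 30 genes the deleted list held more peaks than the control list, in 4 as many and in 3 fewer, in lists of unequal length. The counts per list that follow are not matched for gene length or number of peaks. They stand beside the 1.72% and 4.56% over all genes and were not read as themes.

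Neural stem cell genes with a member were Nfia (fold 5.38), Nfix (4.84) and Fgfr1 (4.64), 3 of 27. Nfia and Nfix are transcription factors of the NFI family that drive gliogenesis, and Fgfr1 is a receptor for the growth factor on which such cultures are kept. Nfia (chr4:97617415-97617689 for the member) had 100 deleted and 73 control peaks, and the member lay 56 bases from a deleted peak of 4.22. In Nfix the deleted peak was 25 bases away with 5.71, and in Fgfr1 739 bases away with 3.86.

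In growth factor signalling by EGF, FGF and PDGF, 2 of 28 genes had a member, Fgfr1 and the ligand gene Fgf1, whose 2 members (5.04 and 4.60) lay in a stretch that Arhgap26 overlaps. In the BMP and TGF-beta pathway 2 of 30 did: the ligand gene Tgfb2 (5.04, with a deleted peak of 4.60 at 239 bases) and the receptor gene Bmpr2 (4.67, with one of 4.20 at 117 bases). In the Wnt pathway 3 of 30 did: the coreceptor gene Lrp5 (5.17), Apc2 (4.84), a relative of the pathway's scaffold, and the kinase gene Gsk3b (4.64). The Gsk3b member lay at the gene's end, 266 bases from a deleted peak of 9.07.

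In the Notch pathway Maml2, a coactivator, was the 1 of 23, with 2 members (5.25 and 4.60) in a gene of 413 kb with 157 deleted and 109 control peaks. In the Hippo pathway 3 of 20 had a member: the upstream regulator Wwc1 (5.25) and the DNA-binding factors Tead3 and Tead1 (4.64 each). Among axon guidance genes Sema6d (4.78) and Ntn1 (4.60), both for guidance cues, were the 2 of 33.

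Regulators of the cytoskeleton gave 6 of 43: Map1b (6.05), the formins Diaph1 and Diaph3 (5.04 each), the GTPase-activating protein Arhgap23 (4.84), and the kinase Limk2 and the adhesion protein Tln2 (4.64 each). Of the 43, 38 had an enriched control peak, and over all such genes 4.56% had a member. The 6 were long, from 66 kb (Limk2) to 485.9 kb (Diaph3), against a median of 20.9 kb for all such genes. The Diaph3 member (chr14:86861615-86861897) was the exception in place among listed genes, 100250 bases from the nearest deleted peak. Ion channels and receptors gave 4 of 38: the AMPA receptor subunit Gria2 (5.25, with a deleted peak of 10.07 at 347 bases), the potassium channel partner Kcnip1 (5.0), the potassium channel Kcnma1 and the GABA receptor subunit Gabbr1 (4.64 each).

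Single or paired genes came from 4 more lists: Chst3 of 34 genes of the extracellular matrix, Cdk2 (4.84) of 30 cell cycle genes, Srebf1, a regulator of lipid synthesis, and Fdft1, a squalene synthase (4.64 each) of 20 lipid genes, and Mbp (4.64), a myelin protein, of 12 oligodendrocyte genes. Of all 32 members in listed genes, 25 lay within 1 kb of a deleted peak and 1 beyond 5 kb.

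In 11 lists no gene had a member. They were the lists for astrocytes, neurons, microglia, endothelial cells, fibroblasts, imprinted genes, clustered protocadherins, interferon response, the Hedgehog pathway, AP-1 and immediate early genes, and chromatin and Polycomb regulators. Of the 44 chromatin and Polycomb genes 42 had an enriched control peak, of the 36 imprinted genes 16 and of the 14 clustered protocadherin genes 10, while none of 7 microglia genes and 2 of 18 neuron genes had one, so for those cell types a member was hardly possible. Over all genes with an enriched control peak, 4.56% had a member. At that share few or no members would fall in lists of these sizes, so the zeros were not read as absences.

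Members were spread over the autosomes. As a percentage of enriched control peaks they ran from 2.27% on chromosome 11 (1.68 to 3.01) to 3.96% on chromosome 14 (2.72 to 5.54), with a median of 2.97% over the 19 chromosomes. Deleted-only peaks ran from 7.31% on chromosome 13 to 11% on chromosome 12. By number, chromosome 7 held the most members, 61, and chromosome 18 the fewest, 18.

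In windows of 1 Mb, 375 members were the only one, and 510 windows held any. The largest number was 5, in a window of chromosome 4 from 107 to 108 Mb with members in Glis1, Lrp8, Cyb5rl and Tceanc2, and in a window of chromosome 5 from 124 to 125 Mb with members in Abcb9, Cdk2ap1 and Rilpl1. The chromosome 4 window had 150 deleted and 109 control peaks, and the chromosome 5 window had 179 deleted and 132 control peaks.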

How the data were processed

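H3K27ac ChIP-seq of 1 Smchd1-deleted and 1 Smchd1-control culture, each with an input, was read from the authors' peak lists. Per the submitters' processing notes, bcl2fastq and Bowtie 0.12.9 were used with the mm10 build. Peaks were called with MACS2 2.1.0.20140616, per library against its own input, with a q-value limit of 0.05, per the file headers. Each deposited list holds the pileup signal at every summit, −log10 p-values and −log10 q-values, and the fold enrichment, a ratio, all as the authors' run wrote them. Fold equals (pileup + 1) / (background + 1), from which the background was recovered here, with a tolerance of 2% for its floor. Per the file headers, the larger library of each pair was scaled down by sampling.

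Peaks on chromosomes 1 to 19 were compared with Python 3.11.15 (pandas 2.3.3, scipy 1.17.1), on functions tested on simulated data. Percentages have exact Clopper-Pearson 95% intervals, and medians order-statistic intervals. Genes and promoters came from RefSeq on GRCm38.p6, whose chromosomes are those of mm10. Its promoter table lacked chromosome 18, and no genome was used, so motifs were searched in promoters in place of summits. With 1 library per group no test was made. Members, gene lists and tests were chosen with earlier results of these data known. Named genes followed set rules: the 25 most enriched members, the 20 genes with the most enriched gene-end member, the 10 genes with most members inside, listed genes with a member, and the threshold's 3 neighbours on either side. Exceptions are stated, and 1 gene that these rules name is not reported here. Alternatives changed the fold minimum, the overlap, the q-value limit, the deleted list's length and the gene-end window.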

Additional observations from a re-analysis of the deposited data

Results flagged for a closer look

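Chromosome X lies outside the rule that chose the members. The control list held 259 enriched peaks there, and 7 of them overlapped no deleted peak, or 2.70% (95% interval 1.09 to 5.49), against 3.01% on chromosomes 1 to 19. Of 346 enriched deleted peaks on X, 46 overlapped no control peak, or 13.3% (9.90 to 17.3), against 8.59% on chromosomes 1 to 19, a difference that was not tested. The 7 peaks had fold enrichments of 4.57 to 5. They were listed because they show signal in sequences that the comparisons above do not use. There was no control-only peak among 3 enriched control peaks on Y and among 2 on unplaced sequence.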

How the results depend on the processing

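Of 62 values under 9 alternative settings, 11 stayed within the error of the value reported (1.5 times for counts) and 51 moved. With fold minimums of 4, 5 and 6 there were 2914, 235 and 13 members, or 8.80%, 1.29% and 0.112% of enriched control peaks. In the same order, gene-end percentages were 16.1%, 26.0% and 30.8%, median distances to a deleted peak 662, 377 and 153 bases, genes with a member at an end 554, 73 and 4, listed genes with a member 92, 11 and 2, chromosome 11 percentages 8.23%, 0.979% and 0.0943%, and chromosome 14 percentages 10.6%, 1.10% and 0%. The percentage inside genes was 64.3% at 5, and the median width was 236.5 bases at 4 and 274 at 6. Where a deleted peak had to cover at least 50% of the control peak, members numbered 1634 (7.07%), with 24.7% at gene ends and a median width of 401.5 bases. Where a deleted peak within 1 kb counted as overlapping, 255 were left (1.10%), with 13.3% at gene ends, a median distance of 4435 bases, 37 genes with one at an end, 7 listed genes, and 0.870% on chromosome 11 and 2.1% on chromosome 14. With both lists held to a −log10 q of at least 5, there were 1854 (8.03%), with a median distance of 1136 bases, a median width of 303 bases, 448 genes, 60 listed genes, 7.59% on chromosome 11 and 8.91% on chromosome 14. That limit on the control list alone could remove no member, since the lowest −log10 q of a member was 7.53. With a deleted list as long as the control list there were 1309 (5.67%). With a gene-end window of 2500 bases, 30.9% of members and 273 genes were counted. The number of members thus depends on the fold minimum and on where the deleted list ends. The cause of these shifts was not tested beyond what each setting itself changes. No paired analysis was possible because each group had 1 ChIP library, and no replicate could be left out. Control depth, 42277672 tags, limits what a missing control peak shows, and the deleted list says nothing of signal under its own limit.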
